A study of Mus musculus with 12 samples.

Results

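The genes described here are 10 well-known transcriptional targets of the tumour suppressor p53, out of 23337 gene symbols counted in mouse urothelium with or without the cohesin subunit Stag2. They are Mdm2, Ccng1, Btg2, Bbc3, Bax, Phlda3, Eda2r, Sesn2, Trp53inp1 and Gdf15, and they were taken by symbol from a list that was drawn up with earlier results of these data known. The question was whether loss of a cohesin subunit came with a p53 response. RNA was read from the 3′ ends of polyadenylated transcripts in peeled urothelium, the epithelium that lines the bladder, from 12 mice in 4 groups of 3. Stag2-WT and Stag2-KO mice were both fed TMX chow (taken to be tamoxifen, which activates inducible Cre recombinases) for a week and were taken 1 week or 1 month after that diet began. The labels call this the induction. The Cre driver, the deleted exons, the strain, the age and the sex are not given in the sources used here. All 6 libraries of 1 week were batch 1 in the labels, replicates 1 and 2 of both genotypes at 1 month were batch 2, and replicate 3 of both genotypes at 1 month was batch 3, so time and batch cannot be told apart.

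The p53 protein, encoded by Trp53 in the mouse, is a transcription factor held at a low level by the ubiquitin ligase Mdm2 and its partner Mdm4. DNA damage, replication stress and other insults stabilise p53 or free it from Mdm2, mostly without a change in Trp53 RNA, and it then binds a response element near genes of cell-cycle arrest, apoptosis, metabolism and its own feedback. Several of these genes also answer to other inputs: Btg2 is induced by growth factors, and Sesn2 and Gdf15 by the integrated stress response, a translation-control pathway that works through Atf4. Urothelium is a slowly renewing epithelium of basal, intermediate and umbrella cells, and cohesin, of which Stag2 is a subunit, holds sister chromatids together and forms chromatin loops.

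None of the 9 members that could be tested passed the threshold of an adjusted p of 0.05 at either time. Gdf15 had too few reads for a test. At 1 week 5 members were higher and 4 lower in KO (51.5% of all genes were higher), with a median log2 fold change of 0.05 against 0.02 over all genes tested. At 1 month 4 were higher (49.6% of all genes) and 5 lower, with a median of -0.21 against -0.01. With edgeR's quasi-likelihood test and Benjamini-Hochberg adjustment over all genes, 0 of the 9 were called at 1 week, where 0.0627% of all 12754 genes tested were called. That share is 8 genes, and 5 of them were sex transcripts, named below. At 1 month 0 of the 9 were called, where 2.22% of 12139 genes were. At an unadjusted p under 0.05, 0 of 9 passed at 1 week (15.5% of all genes) and 1 of 9, Mdm2, at 1 month (21.5% of all genes). DESeq2 also called 0 members at either time, while it called 7.52% of genes at 1 week and 6.98% at 1 month. At 1 month it gave an adjusted p for 11197 genes, and Sesn2 and Eda2r were not among them, so neither could be called.

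**Figure D1:**
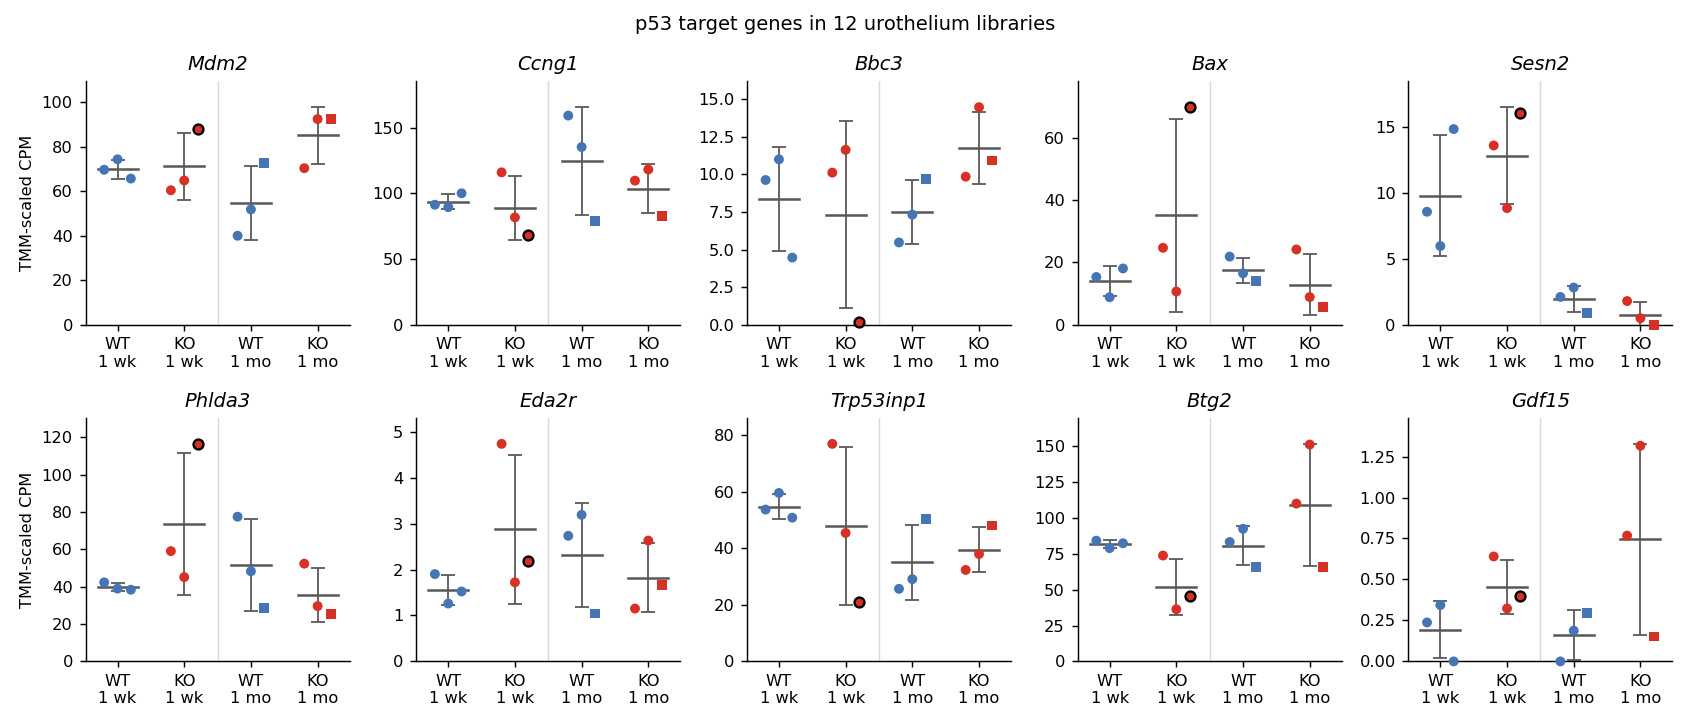
Reads scaled to a common library size (CPM) of the 10 members in each of the 12 libraries, with WT in blue and KO in red; a horizontal line is the mean of 3 libraries and a vertical bar its SD, cut at 0. Squares are batch 3 and the black outline is KO replicate 3 at 1 week, where Bax and Phlda3 stand highest of the 6 libraries of that time and Bbc3 lowest.

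The libraries held 5580961 to 9497088 counted reads, and values are CPM scaled by TMM over the 12 libraries. Stag2, which checks the labels, was 106 to 151 CPM in WT and 59.6 to 72.2 in KO at 1 week, and 45.1 to 64.6 against 19.3 to 39.4 at 1 month, so the ranges did not overlap at either time. With edgeR the targeted gene itself missed the threshold at both times (log2 fold changes -0.89 and -0.88, adjusted p = 0.198 and 0.0507), so a change of that size could go uncalled here. Its reads remained in every KO library. KO replicate 3 at 1 week stood apart, with a Spearman correlation across genes of 0.730 to 0.833 with the other libraries of its time. For the members that it moves, the value at 1 week is also given without it. Xist, the transcript of the inactive X chromosome, had at most 13 reads in the WT libraries of 1 week and 6392 to 10406 in the KO libraries. Of the 8 genes that edgeR called at 1 week, 5 were sex transcripts: Xist, higher in KO, and Ddx3y, Uty, Eif2s3y and Kdm5d, lower in KO. At 1 week genotype and sex therefore cannot be told apart. At 1 month only KO replicate 3 had Xist reads in number (7764, against 2 to 28), and all batch 2 libraries were without it. The 15 urothelium markers had reads in every library, and so did the 20 stromal and immune markers. The summed stromal and immune level was 3903 to 6171 CPM in WT and 6345 to 11474 in KO at 1 week, and at 1 month 10986 to 15622 in WT with 8956 to 10369 in KO. Its part in the results below was not tested. In tissue RNA, fewer cells of a type and less RNA per cell cannot be told apart.

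The promoter windows of the members were searched for letters that resemble a p53 response element. The p53 consensus, a pair of 10-base repeats each with a 4-base core, was searched on RefSeq promoter windows (GRCm38.p6) in the 250 bases before the annotated start, with at most 3 mismatches outside the fixed core bases C and G and a spacer of at most 1 base. The consensus is its own reverse complement, so a search of 1 strand covers both. Of the members 9 had a window (Trp53inp1 had none), and 3 of these 9 held a match, as did Cdkn1a, the p21 gene. Of all 27025 genes with a window, 716, or 2.65%, held one. A match is a description of letters, not proof of binding, and elements in introns, as known for Mdm2, lie outside these windows. The matches are printed 5′ to 3′ on the strand of the gene, with the core of each repeat in capitals. Distances run from the first base of a match to the RefSeq start, which need not be the gene start of the GENCODE M21 spans given below. The Bbc3 match lies inside the GENCODE span of that gene.
Ccng1, chr11:40755462-40755481, minus strand, 195 bases before the start, 1 mismatch: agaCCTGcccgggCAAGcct
Cdkn1a, chr17:29090928-29090947, plus strand, 51 bases before the start, 1 mismatch: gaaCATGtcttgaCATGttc
Bax, chr7:45467079-45467099, minus strand, 201 bases before the start, 2 mismatches, spacer of 1 base: aggCAAGctttgaaCTTGcgg
Bbc3, chr7:16309486-16309505, plus strand, 97 bases before the start, 3 mismatches: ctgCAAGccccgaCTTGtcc
Ccng1 and Cdkn1a carried the closest matches, with 1 mismatch each. No conclusion about a p53 response is drawn from the matches.

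Mdm2 (chromosome 10, 117688875-117710758, minus strand, GRCm38) encodes the ligase that degrades p53, and p53 induces it from a promoter in its first intron, which closes a feedback loop. A constitutive promoter upstream gives transcripts with the same 3′ end, so these counts sum both. At 1 week Mdm2 was 69.6, 74.4 and 65.7 CPM in the WT libraries and 60.4, 64.8 and 88.1 in the KO libraries. KO replicates 1 and 2 lay below all WT libraries and replicate 3 above them, and the means were 69.9 ± 4.34 and 71.1 ± 14.9 (SD, n = 3 each). The log2 fold change was 0.05 (SE 0.27, edgeR adjusted p = 0.946), and its 95% interval of -0.58 to 0.67 lay inside a 2-fold change either way. Without replicate 3 it was -0.18 (adjusted p = 0.652). At 1 month Mdm2 was 40.0, 51.8 and 72.7 CPM in WT and 70.4, 92.4 and 92.4 in KO. The groups overlapped through WT replicate 3, which lay above KO replicate 1, while within each batch every KO library was above every WT library. The means were 54.8 ± 16.6 and 85.1 ± 12.7, and the log2 fold change was 0.67 (SE 0.22, 95% interval 0.19 to 1.16, edgeR adjusted p = 0.120). The log2 difference was 0.82 in batch 2 and 0.34 in batch 3. Mdm2 passed the threshold when the batch 3 libraries were left out (log2 fold change 0.86, adjusted p = 0.0391, with 12.2% of genes called) or when no filter on low counts was used (0.72, adjusted p = 0.0297, with 7.09% of genes called). It also passed without WT replicate 3 alone (0.85, adjusted p = 0.0374) or KO replicate 3 alone (0.86, adjusted p = 0.0377), with 1522 and 1513 genes called. Neither is separate support. The batch covariate takes up the batch 3 library that remains, so the genotype effect rests on batch 2 again. Over the 15 alternatives for Mdm2 the adjusted p ran from 0.0297 to 0.658 and the log2 fold change from 0.50 to 0.90.

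Of the 15 urothelium markers 12 were lower and 3 higher in KO at 1 month, with a median log2 fold change of -0.40 and 1 edgeR call (Krt20, a keratin of umbrella cells, lower); 6 of the 8 at an unadjusted p under 0.05 were lower. Krt5 and Trp63, which were among the higher ones, were singled out after their values were seen. Krt5, a keratin of basal cells, was 119, 215 and 492 CPM in WT and 627, 635 and 672 in KO, and Trp63, the p53 relative that marks basal cells, was 15.8, 22.5 and 33.7 against 37.1, 46.4 and 30.9. Neither passed (log2 fold changes 1.44 and 0.71, adjusted p = 0.0505 and 0.194). As with Mdm2, the highest WT value of both genes was replicate 3, where Trp63, unlike Mdm2, was above the KO library of its batch. At 1 week Trp63 had the opposite sign, at 75.4 to 83.3 CPM in WT and 46.1 to 50.1 in KO (log2 fold change -0.69, edgeR adjusted p = 0.246). KO lay wholly below WT there, as for 13.4% of all genes. Krt5 had -0.26 at 1 week (edgeR adjusted p = 0.723), with overlapping groups. The part of basal-cell RNA in the Mdm2 values was not tested.

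Ccng1 (chromosome 11, 40748552-40755311, minus strand) encodes cyclin G1, a p53-induced cyclin that works with protein phosphatase 2A on Mdm2. It was 91.3, 89.5 and 100.0 CPM in WT and 116, 81.6 and 68.5 in KO at 1 week, so KO replicate 1 lay above the WT libraries and the other two below. At 1 month it was 159, 135 and 79.1 in WT and 109.6, 118 and 83.0 in KO, with the lowest value of each genotype in batch 3. The log2 fold changes were -0.05 (SE 0.29, 95% interval -0.74 to 0.64, adjusted p = 0.947) and -0.21 (SE 0.20, -0.64 to 0.21, adjusted p = 0.550). Both intervals lay inside a 2-fold change, which makes Ccng1 the only member so bounded at both times. Without KO replicate 3 the 1 week value was 0.055.

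Btg2 (chromosome 1, 134075170-134079120, minus strand) encodes an antiproliferative protein that recruits the CCR4-NOT deadenylase. In the libraries of 1 week it was 84.3, 79.1 and 82.4 CPM in WT and 73.9, 36.4 and 45.6 in KO, so every KO library lay below every WT library. Its log2 fold change there was -0.63 (SE 0.33, 95% interval -1.41 to 0.15, adjusted p = 0.407). Of the 9 tested members, Btg2 was the only one with KO wholly below WT at 1 week, where 13.4% of all genes were so placed. At 1 month the order differed: 83.3, 92.6 and 65.9 CPM in WT and 110.1, 151 and 66.0 in KO. Both batch 2 KO libraries were above their WT libraries (log2 difference 0.55), and in batch 3 the genotypes had the same level (0.00). The log2 fold change at 1 month was 0.39 (SE 0.22, -0.09 to 0.87, adjusted p = 0.326).

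Bbc3 (chromosome 7, 16308393-16318205, plus strand) encodes PUMA, a BH3-only protein that triggers mitochondrial apoptosis. The 1 week levels were 9.63, 11.0 and 4.47 CPM in WT and 10.1, 11.6 and 0.198 in KO, the last from 1 read. Replicate 3 set the sign: the log2 fold change was -0.15 (SE 0.96, 95% interval -2.39 to 2.10, adjusted p = 0.954) with it and 0.36 without it. At 1 month Bbc3 was 5.47, 7.32 and 9.68 CPM in WT and 9.85, 14.5 and 10.9 in KO. All KO libraries lay above all WT libraries, the nearest values being 9.68 and 9.85 CPM. Bbc3 was the only tested member so placed at 1 month, where 6.42% of all genes had KO wholly above WT. No tested member had KO wholly below WT at that time, as 6.71% of all genes had. The means were 7.49 ± 2.11 and 11.7 ± 2.42 CPM (SD, n = 3 each), and the log2 fold change of 0.67 (SE 0.33, 95% interval -0.05 to 1.39, adjusted p = 0.269) did not pass. It was 0.89 in batch 2 and 0.17 in batch 3.

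Bax (chromosome 7, 45461697-45466898, minus strand) encodes the pore-forming protein that PUMA and other BH3-only proteins activate. Its levels at 1 week were 15.3, 8.82 and 18.1 CPM in WT and 24.7, 10.7 and 69.9 in KO. KO replicate 2 lay within the WT range, and replicate 3 was far above the rest. The log2 fold change of 1.33 (SE 0.67, 95% interval -0.23 to 2.90, adjusted p = 0.387) became 0.30 without replicate 3. At 1 month Bax was 21.9, 16.5 and 14.2 CPM in WT and 24.2, 8.88 and 5.61 in KO, with a log2 fold change of -0.54 (SE 0.38, -1.37 to 0.29, adjusted p = 0.436). In KO replicates 2 and 3 of 1 month, Bbc3 was above and Bax below all WT libraries, so both proapoptotic genes stood on opposite sides in the same RNA.

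Phlda3 (chromosome 1, 135766119-135769136, plus strand) encodes a small PH-domain protein that keeps the survival kinase Akt from the membrane. At 1 week it was 42.3, 39.0 and 38.4 CPM in WT and 59.0, 45.1 and 116 in KO, so every KO library lay above every WT library. It was the only tested member so placed at that time, where 13.3% of all genes were. The means were 39.9 ± 2.12 and 73.5 ± 37.8 CPM, and the log2 fold change was 0.90 (SE 0.39, 95% interval -0.01 to 1.81, edgeR adjusted p = 0.326). Without KO replicate 3 it was 0.36, with KO still above WT. At 1 month Phlda3 was 77.5, 48.3 and 28.5 CPM in WT and 52.3, 29.6 and 25.2 in KO. The mean of KO was lower within each batch, and the log2 fold change was -0.46 (SE 0.27, -1.03 to 0.11, adjusted p = 0.338).

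Eda2r (chromosome X, 97333840-97377216, minus strand) encodes a receptor of the TNF family for ectodysplasin A2. It was low throughout, at 7 to 37 reads a library. At 1 week it was 1.90, 1.26 and 1.52 CPM in WT and 4.74, 1.72 and 2.18 in KO, with a log2 fold change of 0.91 (SE 0.56, 95% interval -0.39 to 2.21, adjusted p = 0.457). At 1 month it was 2.74, 3.19 and 1.04 in WT and 1.15, 2.63 and 1.67 in KO, with -0.27 (SE 0.55, -1.44 to 0.91, adjusted p = 0.809). Groups overlapped at both times. The interval held both no change and a 2-fold rise at 1 week, and both no change and a 2-fold fall at 1 month.

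Sesn2 (chromosome 4, 132492032-132510501, minus strand) encodes sestrin 2, which restrains the growth kinase mTORC1 when leucine is scarce. Levels at 1 week were 8.56, 5.96 and 14.8 CPM in WT and 13.6, 8.83 and 16.0 in KO, overlapping ranges with a log2 fold change of 0.41 (SE 0.45, 95% interval -0.65 to 1.47, adjusted p = 0.675) that was 0.17 without KO replicate 3. At 1 month every library was lower: 2.10, 2.82 and 0.894 CPM in WT and 1.79, 0.493 and 0 in KO, from 10, 15 and 6 reads against 14, 3 and 0. The 0 of KO replicate 3 allows a level of up to 0.455 CPM, counting error only. The log2 fold change at 1 month was -1.42 (SE 0.72, -2.98 to 0.14, adjusted p = 0.275).

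Trp53inp1 (chromosome 4, 11156431-11174379, plus strand) encodes a stress protein that cooperates with p53 and takes part in autophagy. At 1 week it was 53.7, 59.6 and 50.9 CPM in WT and 77.0, 45.4 and 21.2 in KO, so KO replicate 1 lay above and replicates 2 and 3 below the WT libraries. The log2 fold change was -0.16 (SE 0.46, 95% interval -1.23 to 0.91, adjusted p = 0.880) and 0.14 without replicate 3. At 1 month it was 25.7, 29.1 and 50.4 CPM in WT and 32.4, 38.0 and 48.1 in KO. As for Mdm2, the WT library of batch 3 was the highest of its genotype. The log2 fold change of 0.22 (SE 0.22, -0.26 to 0.70, adjusted p = 0.585) lay inside a 2-fold change with its interval.

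Gdf15 (chromosome 8, 70629393-70632456, minus strand) encodes a secreted stress hormone of the TGF-beta superfamily. It had 2, 3 and 0 reads in WT and 5, 3 and 2 in KO at 1 week, while at 1 month the reads were 0, 1 and 2 in WT with 6, 8 and 1 in KO. No library exceeded 1.32 CPM, no fit kept it, and no fold change is given.

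**Figure D2:**
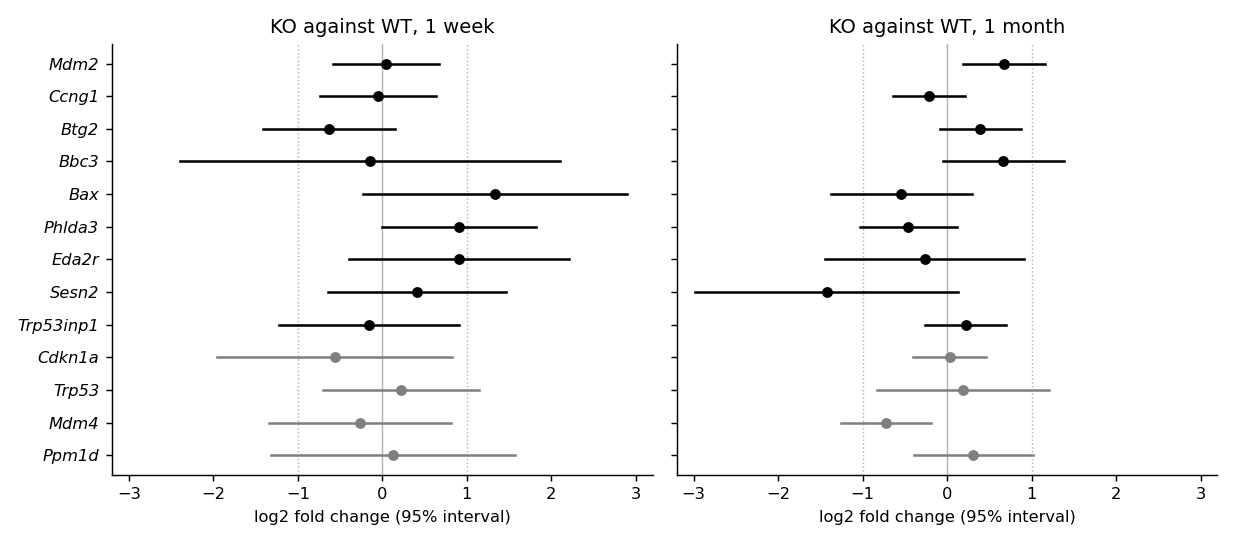
Log2 fold change of KO over WT with its 95% interval at 1 week and at 1 month for the 9 tested members (black) and for Cdkn1a, Trp53, Mdm4 and Ppm1d (grey); dotted lines mark a 2-fold change. At 1 month the interval of Mdm2 runs from 0.19 to 1.16 and that of Mdm4 from -1.26 to -0.19, and the intervals of the 8 other members include 0.

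The genes around p53 itself were read for the same comparison. Cdkn1a encodes p21, the cyclin-dependent kinase inhibitor through which p53 halts the cell cycle. It was 260.4, 275 and 296 CPM in WT and 192, 315 and 46.9 in KO at 1 week, with replicate 3 again the lowest, and the log2 fold change was -0.56 (SE 0.59, 95% interval -1.96 to 0.83, adjusted p = 0.659), or -0.15 without that library. At 1 month Cdkn1a was 119 ± 20.6 CPM in WT and 121 ± 26.1 in KO, with a log2 fold change of 0.03 (SE 0.20, -0.40 to 0.46, adjusted p = 0.942), an interval inside a 2-fold change. Trp53 was 7.31 to 14.1 CPM in WT and 8.52 to 13.2 in KO at 1 week, and 1.69 to 2.83 against 2.17 to 2.58 at 1 month (log2 fold changes 0.22 and 0.19, adjusted p = 0.802 and 0.842). Mdm4, the partner of Mdm2, had 1 month levels of 44.4, 62.0 and 19.4 CPM in WT with 25.2, 36.7 and 12.6 in KO. It was lower in KO within each batch, opposite to Mdm2 (log2 fold change -0.72, SE 0.25, adjusted p = 0.123). At 1 week the log2 fold change of Mdm4 was -0.27 (SE 0.46, edgeR adjusted p = 0.792), with overlapping groups. Ppm1d, a p53-induced phosphatase that turns the pathway off, had log2 fold changes of 0.13 (adjusted p = 0.934) and 0.31 (adjusted p = 0.605).

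The genotype effect at 1 month was then set against that at 1 week in a fit of all 12 libraries. The test of that difference called 0 of the 9 members and 0 of 13122 genes, a share of 0%, while DESeq2 called 0 members and 7% of genes. At an unadjusted p under 0.05, 2 members passed, Phlda3 and Btg2, where 19.9% of all genes did. The KO effect on Phlda3 at 1 month minus that at 1 week was -1.35 on the log2 scale (SE 0.52, adjusted p = 0.199), and for Btg2 this difference was 1.04 (SE 0.41, adjusted p = 0.203). Bax and Sesn2 had differences of -1.87 (adjusted p = 0.258) and -1.88 (adjusted p = 0.259), and Mdm2 of 0.64 (adjusted p = 0.320). Without KO replicate 3 of 1 week, the Bax difference was -0.87 and that of Phlda3 -0.85.

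**Figure D3:**
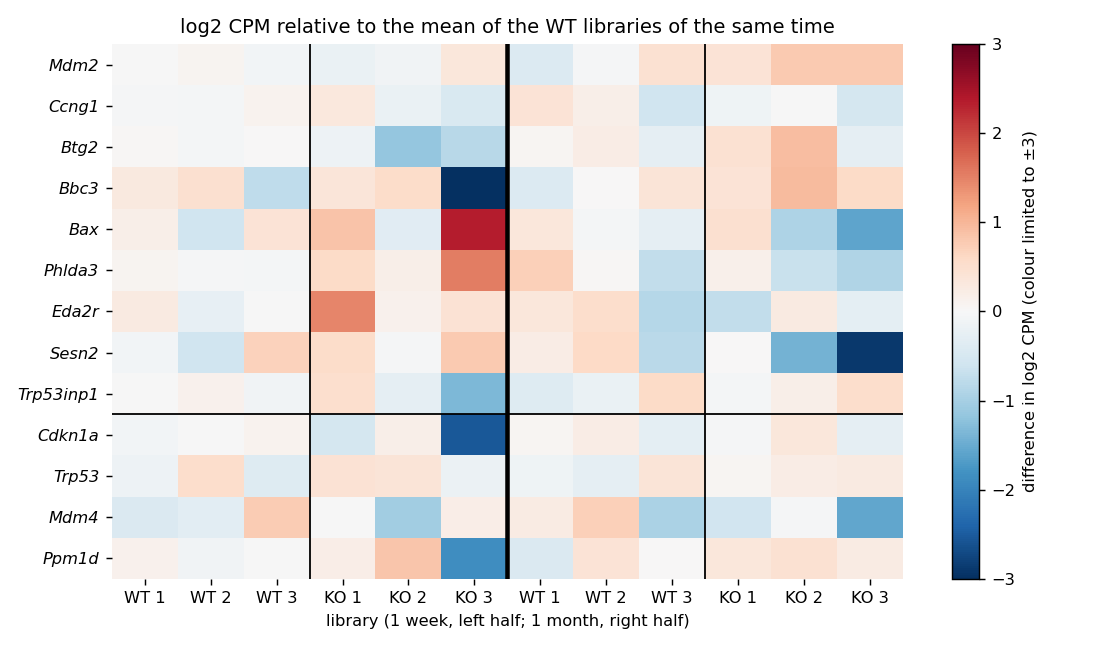
Log2 CPM of each library minus the mean of the WT libraries of the same time, for the 9 tested members and Cdkn1a, Trp53, Mdm4 and Ppm1d (rows) in the 12 libraries (columns), with colours limited at 3. KO replicate 3 at 1 week shows Bax (2.35) and Phlda3 (1.54) high and Bbc3 (-4.09), Cdkn1a (-2.55) and Trp53inp1 (-1.35) low in 1 library.

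Within single KO libraries the members did not move as a block. At 1 week KO replicate 1 had 5 of 9 members above all WT libraries and 2 below, replicate 2 had 2 above and 4 below, and replicate 3 had 5 above and 4 below. Over all genes tested, 31.5% to 40.7% lay above and 34.3% to 46.0% below the WT range in those libraries. At 1 month 3, 3 and 2 members lay above and 0, 2 and 3 below in replicates 1, 2 and 3, against 20.3% to 26.8% of genes above and 18.8% to 31.9% below. Bbc3 was the only member above the WT range in all 3 KO libraries of 1 month. In the outlying KO replicate 3 of 1 week, some genes of other stress programmes were also far above WT. Ddit3 was 287 CPM there against 24.2 to 54.0 in the other 5 libraries of that time, Atf4 801 against 204 to 324, and Fos 279 against 32.4 to 56.4. These were singled out after their values were seen, and their lists did not move as a block. Ier5, an immediate early gene, was 11.7 CPM there against 57.4 to 149. Shmt2, of the integrated stress response, was 12.9 CPM, within its WT range of 12.1 to 19.3. The part of such programmes in the high Bax and Phlda3 values of that library was not tested.

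Among the 36 pairs of tested members, the log2 CPM over the 12 libraries, with the mean of each batch taken off, was positively correlated in 16 and negatively in 20. Without KO replicate 3 of 1 week 21 were positive. These correlations are a description, and the pairs share the same libraries, depth and tissue makeup. By the same measure over 8758 genes with a mean of at least 10 CPM, the gene most like each tested member lay outside the p53 lists. Those lists are a small part of the 8758 genes, so a leader outside them was likely beforehand. No conclusion about p53 is drawn from it. As the highest of so many correlations over 12 libraries, the r of each leader is also high by selection. For Mdm2 the most alike gene was Cyr61 (r = 0.957), a matricellular gene and target of the Hippo effector YAP. For Phlda3 it was Sqstm1 (r = 0.988), the autophagy receptor p62, and for Bax it was Ctns (r = 0.979), the lysosomal cystine transporter. These stayed at 0.951, 0.986 and 0.963 over the 11 libraries without KO replicate 3 of 1 week. The remaining leaders were Mapk3 for Bbc3 (0.988), Aagab for Btg2 (0.985), Zbtb8os for Ccng1 (0.952), Usp3 for Sesn2 (0.920), Golga2 for Eda2r (0.907) and Phf21a for Trp53inp1 (0.957). Without KO replicate 3 of 1 week these were 0.903, 0.982, 0.925, 0.914, 0.937 and 0.890 in the same order.

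**Figure D4:**
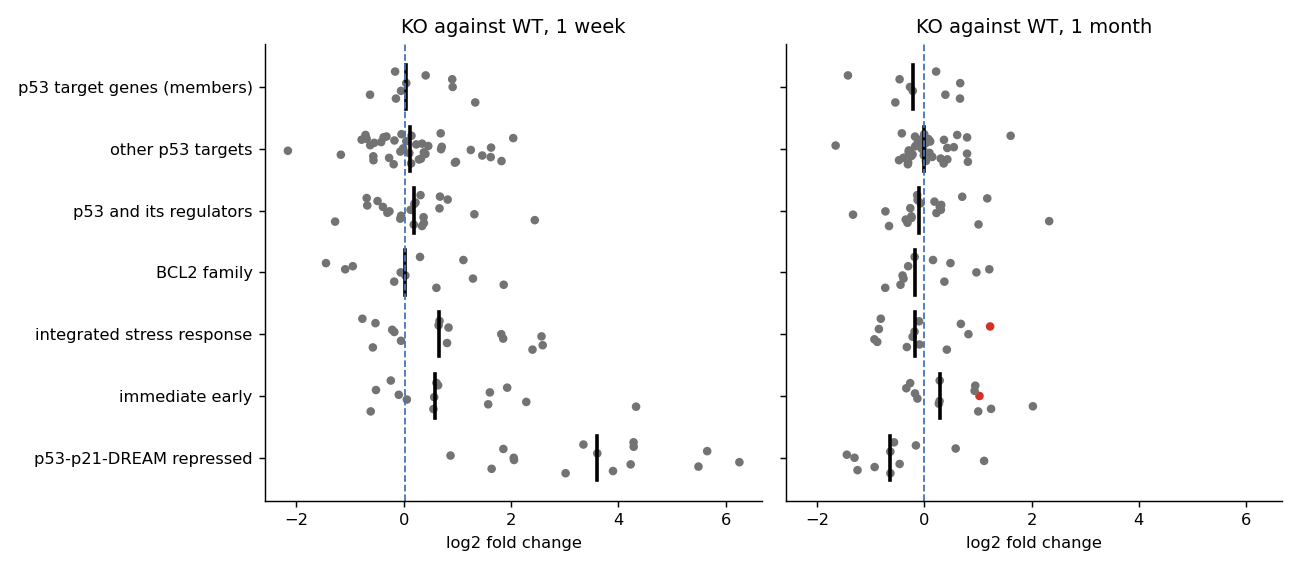
Log2 fold change of KO over WT for each tested gene of 7 lists at 1 week and at 1 month; the black bar is the median of the list, red points have an adjusted p under 0.05, and the blue dashed line is the median of all genes tested. The members have medians of 0.05 and -0.21, and the cell-cycle genes repressed through p53, p21 and DREAM have a median of 3.61 at 1 week and -0.63 at 1 month. These cell-cycle medians are over different sets, 15 genes at 1 week and 11 at 1 month. Of the 15, 6 were low in WT and passed the filter on low counts through the KO libraries, so the median of 3.61 rests in part on that selection.

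A wider list of 45 other p53 targets held no gene called by edgeR at either time. At 1 week 40 were tested, 22 higher and 18 lower in KO, with a median log2 fold change of 0.12. An unadjusted edgeR p under 0.05 was met by 9 of them, 6 higher and 3 lower, beside 15.5% of all genes. Of the 40, edgeR called 0 and DESeq2 called 6. The smallest adjusted p was that of Gadd45a, a growth-arrest and DNA-damage gene, at -2.16 (adjusted p = 0.0927), and Sfn, which encodes 14-3-3 sigma, had 2.04 (adjusted p = 0.137). At 1 month 39 were tested, 19 higher and 20 lower, with a median of -0.01. An unadjusted edgeR p under 0.05 was met by 5, 4 higher and 1 (Pmaip1) lower, beside 21.5% of all genes. Of the 39, edgeR called 0 and DESeq2 called 1. The smallest adjusted p belonged to a pair of death genes with opposite signs: Tnfrsf10b, a TRAIL receptor, at 1.61 (adjusted p = 0.0816) and Pmaip1, which encodes the BH3-only protein NOXA, at -1.65 (adjusted p = 0.0942). These names, and those of the next list, were singled out after their values were seen. The 23 core genes and regulators of p53 had 22 tested at 1 week (13 higher, 9 lower, 0 called, 2 at an unadjusted p under 0.05, DESeq2 1) and 20 at 1 month (9 higher, 11 lower, 0 called, 7 at an unadjusted p under 0.05, DESeq2 2). At 1 month the DNA-damage kinases stood on opposite sides, Atm at -0.66 (adjusted p = 0.0842) and Atr at 1.01 (adjusted p = 0.111), and Cdkn2a, whose ARF product blocks Mdm2, had 2.33 (adjusted p = 0.0714). The 13 other members of the BCL2 family had 11 tested at each time, with 6 higher at 1 week and 5 at 1 month, and edgeR called 0 at both, with 3 and 2 at an unadjusted p under 0.05 and DESeq2 calls of 1 and 0.

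Active p53 lowers many cell-cycle genes through p21 and the DREAM repressor. Of 20 such genes, 15 were tested at 1 week and all 15 were higher in KO, with a median log2 fold change of 3.61; edgeR called 0, 13 had an unadjusted p under 0.05, and DESeq2 called 13. The 5 others did not pass the filter on low counts, and 6 of the 15 (Ccnb1, Ccnb2, Cdk1, Plk1, Aurka and Rrm2) had under 10 reads in at least 1 WT library and passed it through the KO libraries. The count of 15 and the median therefore rest in part on genes that were kept because they were high in KO. The summed level of the 20 was 33.9 to 40.8 CPM in WT and 144 to 895 in KO. At 1 month 2 of 11 tested were higher and 9 lower, with a median of -0.63 and 0 called by edgeR, and the sums were 51.4 to 111 CPM in WT and 38.3 to 58.1 in KO. Beside that, the summed level of the 10 p53-induced members was 369 to 377 CPM in WT and 307 to 440 in KO at 1 week, and 323 to 418 against 333 to 457 at 1 month, with overlapping groups at both times.

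Of 16 integrated stress response genes, which share Sesn2 and Gdf15 as targets, 15 were tested at 1 week (9 higher, 6 lower, median 0.67, 0 called, 4 at an unadjusted p under 0.05, DESeq2 4). At 1 month 13 were tested, 4 higher and 9 lower, with a median of -0.18; 4 of the 5 at an unadjusted p under 0.05 were lower, among them Ddit3, named after its value was seen, at -0.88 (adjusted p = 0.0620), and DESeq2 called 2. Of these 13, 1 was called by edgeR, beside 2.22% of all genes: Shmt2, a mitochondrial serine enzyme, rose from 17.5, 16.7 and 22.5 CPM in WT to 38.2, 32.4 and 65.5 in KO (log2 fold change 1.23, SE 0.23, adjusted p = 0.0214). Of 16 immediate early genes, the class to which Btg2 also belongs, 14 were tested at 1 week (10 higher, 4 lower, median 0.59, 0 called by edgeR, 4 at an unadjusted p under 0.05 and all of them higher, DESeq2 2). At 1 month 13 were tested (9 higher, 4 lower, median 0.29, 4 at an unadjusted p under 0.05, DESeq2 2) and 1 passed: Ier5 was 33.9, 43.6 and 97.7 CPM in WT and 69.1, 108 and 158 in KO (1.03, SE 0.24, adjusted p = 0.0448). Like Mdm2, it was higher in KO within each batch and had its highest WT value in batch 3.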

How the data were processed

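The authors deposited raw counts per gene symbol, 1 table for each time, from QuantSeq 3′ FWD libraries that per the labels' protocols carry the sense strand. The submitters' processing notes list mm10, Bowtie, TopHat, HTSeq and DESeq2, and the annotation is not given in the sources used here. The labels gave genotype and time, hence the groups; replicate numbers follow accession order. For WT replicate 3 at 1 month the title and the library name carry different animal numbers, and the library name was used. The labels name separate animals, so p-values measure the spread between animals within these batches.

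Counts were tested with edgeR 4.0.16 (R 4.3.3, quasi-likelihood with robust dispersions, TMM, filterByExpr); tests were two-sided, p-values were adjusted over all genes (Benjamini-Hochberg), and the threshold was 0.05. Each time had a fit of 6 libraries, with batch as covariate at 1 month, and the difference between times came from all 12. The SE is the absolute log2 fold change over the square root of F, and intervals are 95%. CPM were scaled by TMM over the 12 libraries, with a prior count of 2 for log2 CPM. DESeq2 1.42.0, other scalings, filters and covariates, and leaving out each library were alternatives, and the fits were tested on simulated data. Positions come from GENCODE M21 and promoters from RefSeq. The members and lists were chosen with earlier results of these data known. All 10 members are given in every library. Stag2 was named as a check of the labels, and Cdkn1a, Trp53, Mdm4 and Ppm1d whatever their values, not all by library. Of each other list up to 3 genes called by edgeR per time and direction are named, and of the sex transcripts all 5 called at 1 week. The 15 urothelium markers had 1 call at 1 month (Krt20, log2 fold change -1.76). The 20 stromal and immune markers had 4 at 1 month (Pdgfrb 1.30, Cd74 -1.76, C1qa -1.95, C1qb -1.38), of 19 tested and beside 2.22% of all genes. Neither list had any by edgeR at 1 week. Of the 19 stromal and immune markers tested at 1 week, 18 were higher and 1 lower in KO, with a median log2 fold change of 1.22. An unadjusted edgeR p under 0.05 was met by 11, all higher, beside 15.5% of all genes. DESeq2 called 5 of the 19, beside 7.52% of all genes. Of the list symbols, 5 were matched through older names.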

Additional observations from a re-analysis of the deposited data

How the results depend on the processing

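With 3 animals a group, 1 library can decide a value. No member was called at 1 week or in the difference between times under any alternative. At 1 month the count of called members was 1 (Mdm2) with no filter on low counts, 1 in batch 2 alone, and 0 to 1 when single libraries were left out. The 1 arose without either batch 3 library, where the genotype effect again rests on batch 2. The count was 0 under the remaining alternatives. Signs turned only where the log2 fold change in the main fits lay from -0.27 (Eda2r at 1 month) to 0.05 (Mdm2 at 1 week). At 1 week Mdm2 was -0.023 with library size alone, -0.0075 with no filter, and -0.18 to 0.12 when single libraries were left out. The same leave-one-out ranges at 1 week were -0.32 to 0.055 for Ccng1, -0.65 to 0.36 for Bbc3 and -0.71 to 0.14 for Trp53inp1. At 1 month the range was -0.65 to 0.20 for Eda2r, and Ccng1 was 0.015 with library size alone, a scaling that moved the median of all genes by 0.22. For the difference between times Ccng1 was 0.099 with library size alone (shift of the median 0.25) and -0.30 to 0.10 when single libraries were left out. The cause was not tested.

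The number of all genes called moved more. At 1 week it was 8, against 957 with DESeq2, 62 with no filter, 553 in a fit of 12 libraries and 0 to 320 when single libraries were left out, the most without KO replicate 3. At 1 month it was 269, against 781 with DESeq2, 561 with library size alone (456 of them higher, against 121 of 269), 1276 with no filter, 1474 in batch 2 alone, and 0 both without the batch covariate and in a fit of 12 libraries. It was 45 to 1522 when single libraries were left out. For the difference between times it was 0, against 917 with DESeq2, 137 with no filter, 15 without batch 3 and 0 to 440 when single libraries were left out. No paired analysis was possible because replicate numbers were given in accession order and pair no animals.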
